A study of Mus musculus with 6 samples.

Results

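Cathepsins and legumain are the main proteases of the lysosome, and transcripts of 10 of their genes were measured in sham operated sciatic nerve: Ctsa, Ctsb, Ctsc, Ctsd, Ctsh, Ctsk, Ctsl, Ctss, Ctsz and Lgmn. They were picked by gene symbol from the transcript annotation, so that all 52 transcripts carrying one of these symbols were summed to 10 of 54309 genes. Female and male C57BL/6 mice, 6 to 8 weeks old, had the left sciatic nerve exposed at the thigh and left uncut, and sciatic nerve was collected 24 h later. The labels call the tissue whole, whereas the methods of the study name proximal segments. Nerves of 2 mice were pooled per library, giving 3 female pools and 3 male pools from 6 mice of each sex. All 6 pools had surgery, so no pool stands for an unoperated nerve, and the axotomized nerves of the study were not analysed here. The libraries held 55949876 to 66285694 estimated read pairs in females and 59165914 to 78473057 in males.

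Cathepsins are made as inactive precursors, are carried to the lysosome and become active in its acid interior, where they cut proteins taken up from outside or delivered by autophagy. Most are cysteine proteases (B, C, H, K, L, S and Z), cathepsin D is an aspartic protease, cathepsin A is a serine carboxypeptidase, and legumain cuts after asparagine and processes other cathepsins. In a peripheral nerve, macrophages and Schwann cells are known for lysosomal breakdown of myelin, and several cathepsins also act outside cells on matrix proteins.

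Whole-tissue RNA held other tissues beside nerve, and these differed between pools. Summed over 16 genes of fast skeletal muscle, the level was 43.3, 4223 and 101 TPM in female pools 1, 2 and 3, against 282, 114 and 95.6 TPM in male pools 1, 2 and 3, where TPM is a transcript level normalized for length and library total. The sum was highest in female replicate 2, and the sexes overlapped. The 6 erythroid genes summed to 8156 to 30870 TPM in females and 5064 to 14190 TPM in males, with the lowest sum in male replicate 3. The 10 adipocyte genes summed to 1008 to 1905 TPM in females and 941 to 1026 TPM in males. Their median log2 fold change, female over male, was 0.64, with 1 gene below 0 and none called by edgeR. With the muscle genes left out of the library totals, no cathepsin or Lgmn was called between the sexes, as with them. The part of blood and of fat in the results was not tested. The 12 myelinating Schwann cell genes, which mark the tissue as nerve, summed to 35020 to 42530 TPM in females and 40340 to 44330 TPM in males.

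The 10 genes were abundant, and together they held 0.492 to 0.678% of all TPM in a pool. Their summed level was 5111, 4915 and 5222 TPM in female pools, against 5784, 5503 and 6775 TPM in male pools. The sums did not overlap between the sexes, and male replicate 3 stood above all other pools. Ctsb, Ctss and Ctsd made up 56.2 to 57.3% of that sum in females and 58.3 to 60.9% in males. Of the 10 genes, 9 ranked above the 95th percentile of the 16310 genes that passed the filter on low counts, from Ctsb at rank 91 (99.4th percentile) to Ctsh at rank 654 (96.0th), while Ctsk was at the 82.5th. Each gene had at least 2386 read pairs in every pool.

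**Figure D1:**
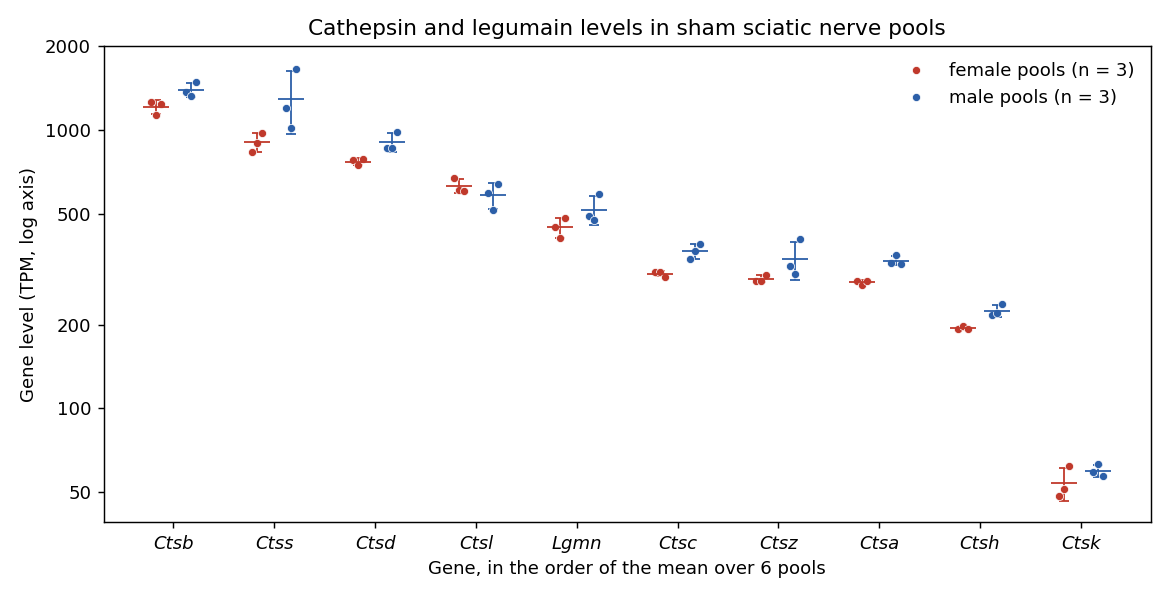
Level of each gene in TPM (vertical log axis) in the 3 female and 3 male pools, with points for pools, a horizontal line for the mean of a sex and bars for the SD. Levels span from about 48.3 TPM (Ctsk, female replicate 1) to 1658 TPM (Ctss, male replicate 3), and for 7 genes every female pool lies below every male pool.

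Ctsb, which encodes cathepsin B, an endopeptidase that also removes dipeptides from the carboxyl end, had the highest mean level. It had 1262, 1133 and 1236 TPM in female pools, against 1364, 1326 and 1483 TPM in male pools. Ctsb lies at chr14:63358384-63383372 on the plus strand (GRCm39), and its end overlaps Fdft1 on the opposite strand, which averaged 68.2 TPM.

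Ctss encodes cathepsin S, which stays active at neutral pH and trims the invariant chain during antigen presentation. It had 834, 896 and 973 TPM in female pools, against 1201, 1019 and 1658 TPM in male pools. It varied more between pools than the other members, with a coefficient of variation of 27.6% over 6 pools, against 8.64 to 12.5% for 8 of the others and 14% for Ctsz. Ctss at chr3:95433963-95463717 and Ctsk at chr3:95406178-95416732 are neighbours on the plus strand. Ctsk, which encodes the collagen-cutting cathepsin best known from osteoclasts, had 48.3, 51.3 and 62.0 TPM in female pools, against 58.9, 63.1 and 57.2 TPM in male pools. Ctsk values overlapped between the sexes. Its highest TPM was in male replicate 2, whereas its highest library-scaled count was in female replicate 3.

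Ctsd, encoding the aspartic protease cathepsin D (chr7:141929646-141941775, minus strand), had 776, 746 and 785 TPM in female pools, against 863, 862 and 985 TPM in male pools. Ctsl, encoding cathepsin L (chr13:64507151-64518704, minus strand), had 669, 610 and 605 TPM in female pools, against 591, 514 and 640 TPM in male pools. Ctsl was thus the member with the higher mean in females, although the sexes overlapped.

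Lgmn, the gene of legumain (chr12:102359122-102414682, minus strand), ranged from 410 to 481 TPM in females and from 473 to 589 TPM in males. Ctsc (chr7:87927092-87960096, plus strand) encodes cathepsin C, the dipeptidyl peptidase that activates granule serine proteases of neutrophils, mast cells and cytotoxic lymphocytes, and had 309, 308 and 297 TPM in female pools, against 344, 369 and 389 TPM in male pools. All female pools were below all male pools for Ctsc, whereas those of Lgmn overlapped.

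Ctsz (chr2:174267304-174280832, minus strand), encoding the carboxypeptidase cathepsin Z, had 287, 286 and 302 TPM in female pools, against 323, 303 and 404 TPM in male pools. Ctsa (chr2:164674778-164682961, plus strand), encoding the carboxypeptidase that shields neuraminidase and beta-galactosidase in a complex, had 286, 278 and 287 TPM in female pools, against 333, 355 and 331 TPM in male pools. Ctsh (chr9:89936205-89958148, plus strand), encoding the aminopeptidase cathepsin H, had 192, 198 and 193 TPM in female pools, against 216, 220 and 237 TPM in male pools. Females were below males in every pool for all 3 genes, although female replicate 3 and male replicate 2 nearly met for Ctsz. Ctsz overlaps Nelfcd (24.5 TPM), and Ctsa overlaps Pltp (98.5 TPM) and Neurl2 (3.78 TPM), all on the opposite strand. The libraries were strand-specific, but the strand setting of the counting is not given in the sources used here, so reads from such partners could not be told apart with certainty.

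The order of the levels was Ctsb, Ctss, Ctsd, Ctsl, Lgmn, Ctsc, Ctsz, Ctsa, Ctsh and Ctsk. Of the 9 neighbouring pairs in this order, 6 were separated in the same direction in all 6 pools, each with an exact sign-flip permutation p of 0.0312, the smallest that 6 pools allow, and an adjusted p of 0.0469 over the 9 pairs (two-sided). Ctsb exceeded Ctss in 5 of 6 pools only (exact permutation p = 0.0625, adjusted p = 0.0804), with the reverse order in male replicate 3. Ctsc and Ctsz (exact permutation p = 0.125, adjusted p = 0.141) and Ctsz and Ctsa (exact permutation p = 0.594 before and after adjustment) did not differ beyond their spread either. The first places depended on which transcripts were summed. With protein-coding transcripts alone, Ctss averaged 1097 TPM, Ctsd 833 TPM and Ctsb 710 TPM. With counts per kilobase of mean annotated length, Ctsd was above Ctss, Lgmn above Ctsl and Ctsa above Ctsz.

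Within Ctsb, a short transcript classed as a retained intron, Ctsb-202, was assigned 45.5% of the TPM, and the coding Ctsb-201 had 54.5%. Ctsb-202 is 801 bases long and shares 710 of them with exons of Ctsb-201, which has 4743 bases. By estimated read pairs Ctsb-202 held only 8.82 to 11.1% of the gene. The first 90 bases of Ctsb-202 (chr14:63372967-63373056, GRCm39, plus strand, GENCODE M39) are intronic in Ctsb-201 and lead into its exon 4. They are shown because they are where the transcript first departs from the coding one, with the intronic bases in lower case and the first 60 exonic bases in capitals.

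Ctsb-202: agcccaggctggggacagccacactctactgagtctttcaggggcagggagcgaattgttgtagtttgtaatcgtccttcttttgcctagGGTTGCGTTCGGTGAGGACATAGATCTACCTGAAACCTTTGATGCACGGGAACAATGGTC

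Both Ctsb transcripts had lower levels in females. Ctsb-201 had 670, 608 and 660 TPM in female pools, against 733, 713 and 877 TPM in male pools. Ctsb-202 had 592, 525 and 576 TPM in female pools, against 631, 613 and 606 TPM in male pools. The share of Ctsb-201 was 53.4% ± 0.285 in females and 55.5% ± 3.10 in males (SD, n = 3 each), with 59.1% in male replicate 3 beside 53.7 and 53.8% in the other male pools.

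Ctss was divided between a pair of coding transcripts in nearly the same proportion in every pool. Ctss-202 held 89.4% ± 0.332 of its TPM in females and 89.7% ± 0.104 in males (SD, n = 3 each), and Ctss-201 held the rest. In GENCODE M39 both join exon 1, which ends at chr3:95434236, to an exon 2 that starts at 95436745 in Ctss-201 and at 95436748 in Ctss-202, both within the coding sequence. The junctions are shown because these 3 bases, in capitals, set apart the transcripts there.

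Ctss-201: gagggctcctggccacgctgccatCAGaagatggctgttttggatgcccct

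Ctss-202: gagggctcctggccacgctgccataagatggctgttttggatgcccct

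The 1.99-fold range of Ctss over the pools thus came with a share of Ctss-201 that stayed between 10.16 and 10.95%. In male replicate 3, the pool with the highest Ctss level, the share was 10.4%.

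Ctsh, like Ctsa, was divided among 4 transcripts that each held over 5% of its TPM. The coding Ctsh-201 had 72.8, 68.0 and 81.4 TPM in female pools, against 102, 108 and 113 TPM in male pools. It held 37.9, 34.4 and 42.3% of the gene in female pools, against 47.1, 49.2 and 47.7% in male pools. Every female pool was below every male pool on both scales, and the exact two-sided permutation test of the shares gave p = 0.1, the smallest that 3 against 3 pools allow. The short coding Ctsh-204 had 45.3, 45.04 and 37.1 TPM in female pools, against 37.1, 33.5 and 27.4 TPM in male pools, with the higher mean in females and an overlap between female replicate 3 and male replicate 1. Its share was 21.9% ± 2.31 in females and 14.7% ± 2.86 in males (SD, n = 3 each, exact permutation p = 0.1). Ctsh-202, marked for nonsense-mediated decay, held 28.6% ± 1.60 in females and 28.1% ± 6.04 in males (exact permutation p = 1.0), with the highest share, 35.1%, in male replicate 3.

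**Figure D2:**
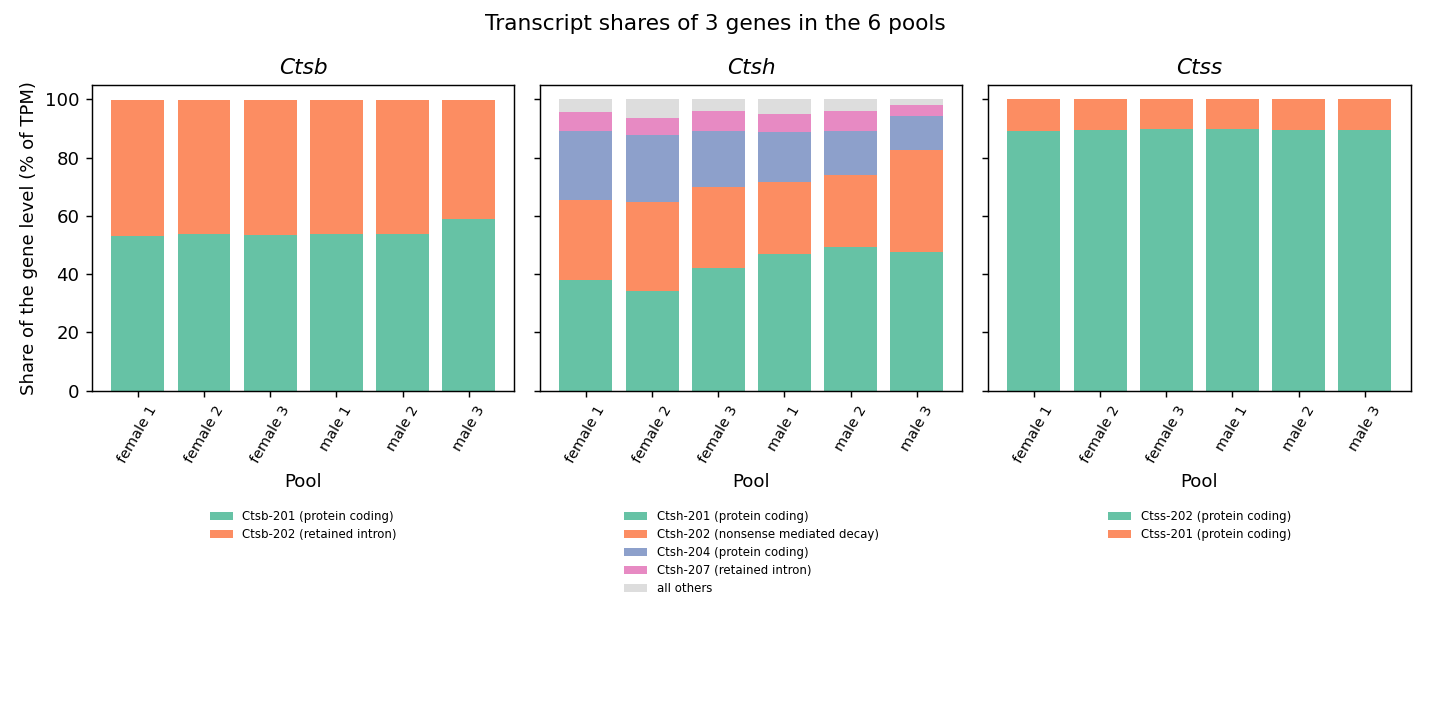
Share of the TPM of Ctsb, Ctsh and Ctss (vertical axis, %) assigned to each transcript, as stacked bars for the 3 female and 3 male pools. Ctsb-202 takes 40.9 to 46.9% of Ctsb, Ctsh-201 takes a smaller share in each female pool than in each male pool, and the Ctss bars hardly vary.

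Among the 8 genes with more than 1 transcript, the main transcripts of 3 (Ctsb, Ctsc and Ctsh) had shares that did not overlap between the sexes, beside 9.65% of the main transcripts of 13213 such genes, and a p below 0.1 was out of reach for any of them. Without female replicate 3 the count was 5, beside 22.8% of all. For Ctsb the sexes nearly met, at 53.66% in female replicate 2 and 53.74% in male replicate 1. Ctsc-201 held 82.2% ± 0.517 of Ctsc in females and 84.5% ± 0.959 in males (SD, n = 3 each). Ctsa was spread over 16 transcripts, of which Ctsa-202 held 41.8%, and Ctsl over 7, of which Ctsl-201 held 77.7%. Ctsd-202 held 99.4% of Ctsd and Lgmn-201 held 94.7% of Lgmn, while Ctsk and Ctsz had 1 transcript each. These shares are estimates of the quantification model from reads that the transcripts largely have in common.

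The sexes were compared gene by gene on the summed counts. None of the 10 members passed the threshold (edgeR quasi-likelihood test, Benjamini-Hochberg adjusted p below 0.1 over 16310 genes), which 10 of all genes, or 0.0613%, passed. At an unadjusted edgeR p below 0.05, 5 members were lower in females, against 3.62% of all genes lower and 6.11% in either direction. DESeq2 called 2 members lower in females, Ctsc and Ctsh, against 0.576% of all genes. Of the 10, 9 fitted log2 fold changes were below 0, with a median of -0.24, whereas 49.4% of all genes were below 0 and their median was 0.0016. In bulk tissue, fewer cells of a type and less RNA per cell cannot be told apart.

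By normalized counts (CPM, counts scaled by library size and TMM factor), 6 members had every female pool below every male pool, namely Ctsa, Ctsb, Ctsc, Ctsd, Ctsh and Ctss, against 6.04% of all genes. None had the reverse, against 5.16% of all genes. The count was 6 as well without male replicate 3, where 13.9% of all genes did so, and without female replicate 2, where 8.71% did. By TPM, Ctsz joined them for 7 members, beside 6.57% of all genes.

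Ctsc had the smallest edgeR p of the members. It had 364, 363 and 381 CPM in female pools, against 426, 468 and 504 CPM in male pools. Female over male, the log2 fold change was -0.34 (SE 0.08, adjusted p = 0.461, edgeR), and its adjusted p over 16 alternative settings ran from 0.0183 to 0.990. The lowest came from DESeq2, the 1 setting that called it.

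Ctsh had 126, 130 and 137 CPM in female pools, against 151, 158 and 188 CPM in male pools. The groups did not overlap, and the log2 fold change was -0.34 (SE 0.09, adjusted p = 0.552, edgeR), with an adjusted p of 0.0969 in DESeq2 and up to 0.999 elsewhere. With offsets for transcript length the log2 fold change was -0.22. For Ctsa the values were 276, 272 and 295 CPM in female pools, against 308, 338 and 362 CPM in male pools. They were again apart, at a log2 fold change of -0.26 (SE 0.08, adjusted p = 0.636, edgeR).

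Ctss had the largest fitted difference among the members, and its spread was also the largest. It had 595, 648 and 736 CPM in female pools, against 871, 745 and 1269 CPM in male pools. Female replicate 3 and male replicate 2 nearly met, and male replicate 3 was far above both other male pools. The log2 fold change was -0.54 (SE 0.19, adjusted p = 0.784, edgeR) over all pools and ranged from -0.70 to -0.29 over the alternatives, the smallest size being that without male replicate 3.

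Ctsb had 2147, 1940 and 2196 CPM in female pools, against 2338, 2283 and 2903 CPM in male pools (log2 fold change -0.26, SE 0.11, adjusted p = 0.813, edgeR). Ctsd, Lgmn, Ctsz and Ctsk had fitted log2 fold changes of -0.21, -0.20, -0.20 and -0.14, with adjusted edgeR p of 0.814 to 0.877. Without male replicate 3 the value of Ctsb was -0.13, that of Ctsd -0.11, that of Ctsz -0.02 and that of Lgmn -0.05. Ctsk was at -0.05 without female replicate 1 and at -0.27 without female replicate 3. The median of the 10 members was -0.13 without male replicate 3.

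Ctsl did not follow the others. It had 563, 553 and 560 CPM in female pools, against 515, 456 and 642 CPM in male pools. The female pools lay close together between the male ones. Its log2 fold change was 0.05 (SE 0.12, 95% interval -0.22 to 0.33, adjusted p = 0.955, edgeR), and it turned to -0.05 without male replicate 2. Without male replicate 3, every female pool was above both male pools and the value was 0.21.

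**Figure D3:**
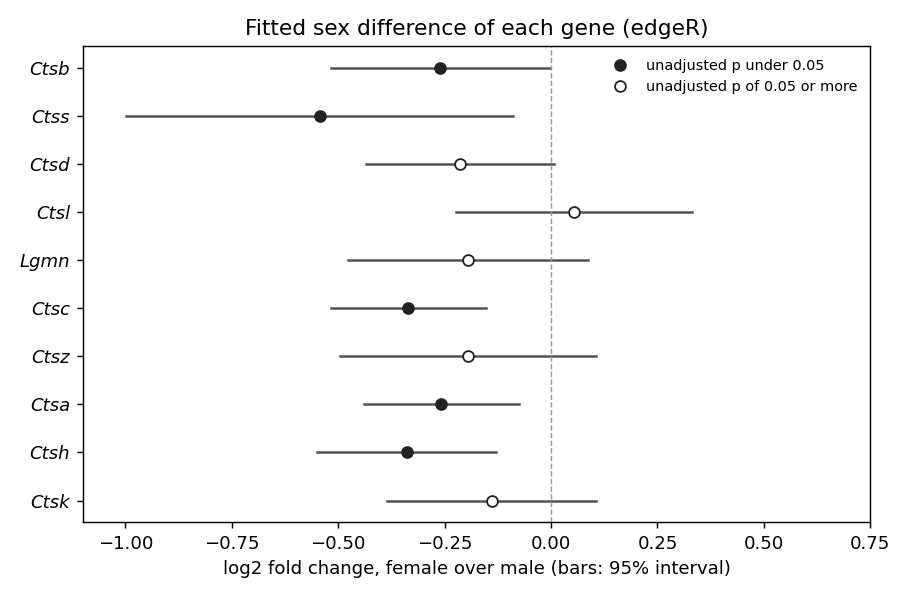
Fitted log2 fold change of female over male for each gene (horizontal axis) with its 95% interval from edgeR, filled where the unadjusted p was below 0.05. Of 10 points, 9 lie left of 0, between -0.54 (Ctss) and -0.14 (Ctsk), and Ctsl lies at 0.05, and no gene passes the adjusted threshold.

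Over the 6 pools the members moved together. Of the 45 pairs of members, 44 had a Pearson r above 0 on log2 normalized counts, the median r was 0.845, and 22 pairs had an adjusted exact permutation p below 0.05. Among all pairs of the 16310 genes tested, 49.9% had an r above 0 and 1.22% an r above 0.9, compared with 37.8% of the member pairs above 0.9. Among the 1000 genes with the highest mean TPM, 2.75% of pairs were above 0.9. With sex means removed the member median was 0.843 and 21 pairs passed. For that count, values centred within each sex were shuffled across the sexes, which such values do not strictly allow. The count therefore cannot decide how many pairs pass apart from sex. On log2(TPM + 0.5), 7 pairs passed and the median was 0.775.

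The closest pair was Ctsb and Ctsd (r = 0.995, exact permutation p = 0.00278, adjusted p = 0.0208; rho = 0.943, exact permutation p = 0.0167, adjusted p = 0.0682). Without the pools farthest from the median of Ctsb, female replicate 2 and male replicate 3, r was 0.966. Ctsc and Ctsa followed (r = 0.990, exact permutation p = 0.00139, adjusted p = 0.0208; rho = 1, exact permutation p = 0.00278, adjusted p = 0.0417), with an r of 0.946 when male replicates 2 and 3 were left out. Ctsd kept the rank order of Ctsc and of Ctsa exactly (rho = 1 in both pairs). By rank correlation, only these 3 pairs passed over the 45.

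With sex means left in, Ctsk and Ctsl stood outside this group. The 17 pairs with either of them had a median r of 0.456, none passed, and the pair of both genes had the lowest r, -0.19 (exact permutation p = 0.726, adjusted p = 0.760; rho = -0.20, exact permutation p = 0.714, adjusted p = 0.824). The other 8 genes gave 28 pairs, all with r above 0, with a median of 0.922 and a lowest value of 0.70 (Ctsc and Ctsz). With sex means removed, Ctsl had an r of 0.969 with Ctsz, 0.925 with Ctss and 0.891 with Ctsd. Its values with Ctsc (0.544) and Ctsa (0.515) were lower. Ctsk then had its highest r, 0.505, with Ctsa.

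**Figure D4:**
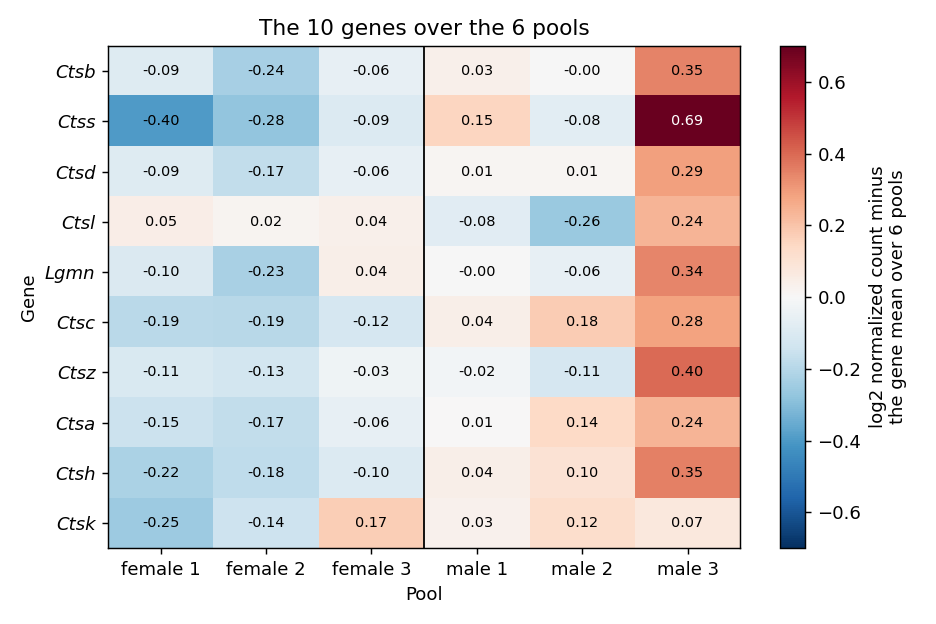
Log2 normalized count of each gene (rows) in each pool (columns, females left of males) minus the mean of that gene over the 6 pools, as colour and number. The column of male replicate 3 is the highest for 9 of 10 genes, and Ctss there has the highest value of the map.

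Male replicate 3 carried much of this covariation. It had the highest normalized count of the 6 pools for 9 of 10 members, compared with 21.6% of all genes, and the exception was Ctsk. The mean z-score of the 10 members was -0.73, -0.84 and -0.10 in female pools, against 0.06, 0.04 and 1.56 in male pools. Without male replicate 3 the median r of the 45 pairs was 0.667 and 37 pairs were above 0. The 28 pairs of the 8 genes were still all above 0, with a median of 0.75, and Ctsb with Ctsd (r = 0.982), Ctsc with Ctsa (0.982), Ctsc with Ctsh (0.974) and Ctsa with Ctsh (0.958) were the closest. Ctsl then ran against Ctsc (r = -0.96) and Ctsa (r = -0.92). Leaving out the 2 pools farthest from the median of the first gene of each pair gave a median r of 0.543 with 35 pairs above 0, so part of the relation rests on those pools. The values without a pool are descriptions and were not tested.

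**Figure D5:**
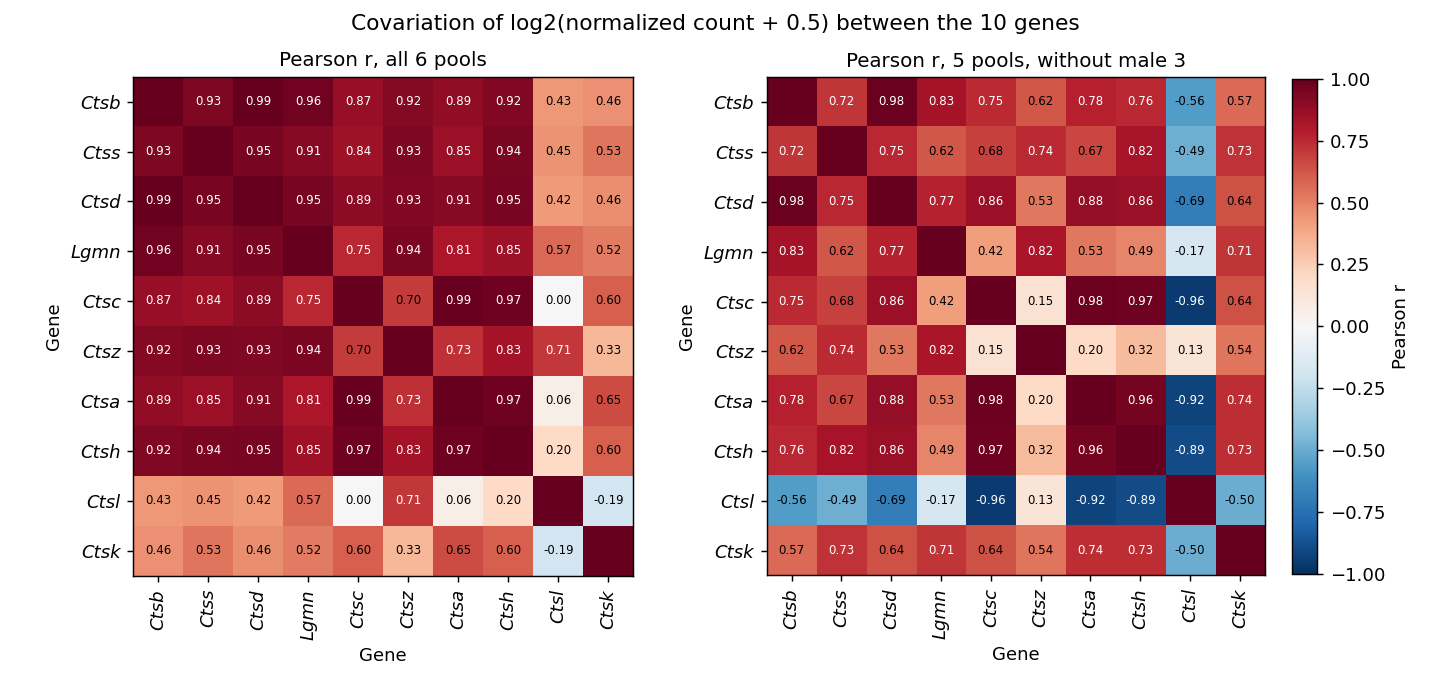
Pearson r between the 10 genes over all 6 pools (left) and without male replicate 3 (right), as colour and number, with Ctsl and Ctsk placed last. The block of 8 genes is above 0 in both maps, from 0.70 on the left and from 0.15 on the right, while the Ctsl row is negative for 8 of 9 genes on the right.

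Of the genes outside the list, those most like the mean z-score of the members were Zbtb18 (r = 0.993), a zinc finger repressor, Ubald1 (0.988), Glmp (0.987), a glycoprotein of the lysosomal membrane, Lat2 (0.985), an adaptor of immune receptor signalling in myeloid and B cells, and Med18 (0.985), a Mediator subunit. In all, 85 of 16300 genes, or 0.521%, had an r above 0.95 over the 6 pools. This ranking was on log2 normalized counts. In TPM, Zbtb18 had 32.2, 29.7 and 29.1 in female pools, against 31.6, 31.9 and 33.9 in male pools, so the sexes overlapped. Glmp had 135, 135 and 159 TPM in female pools, against 165, 157 and 187 TPM in male pools.

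Promoters were examined because members moved together. RefSeq promoter windows on GRCm38.p6, from 250 bases before to 50 after a start site, were found for 8 members (10 windows). The hexamer CACGTG, the core of the sites of TFEB and related lysosomal regulators, was in 4 of the 10 windows, those of Ctsa, Ctsd, Ctsl and Lgmn, and in 7.15% of 32851 windows of that length. Ctsa and Lgmn each also had a window without the hexamer, which reads the same on both strands. The longer TCACGTGA, which contains it and also reads the same on both strands, was in Ctsa and Ctsd and in 0.974% of windows, and the full CLEAR sequence, which adds a G before and a C after it, was in no member and in 0.326% of windows. GAGGAAGT, a sequence bound by the myeloid factor PU.1, was searched on both strands and was in Ctsc and Ctss and in 3.20% of windows. These 4 motifs were chosen after the values had been seen.

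The windows below, shortened to 20 bases after the start site, are those of a pair that covaried and share 2 hexamers each (Ctsa and Ctsd), of the member with the widest spread (Ctss) and of a member with the hexamer outside the covarying 8 (Ctsl). Capitals mark CACGTG or, in Ctss, ACTTCCTC, the reverse complement of GAGGAAGT. They span chr2:164833523-164833792, plus strand for Ctsa, chr7:142387808-142388077, minus strand for Ctsd, chr3:95526536-95526805, plus strand for Ctss and chr13:64370501-64370770, minus strand for Ctsl (GRCm38.p6).

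Ctsa: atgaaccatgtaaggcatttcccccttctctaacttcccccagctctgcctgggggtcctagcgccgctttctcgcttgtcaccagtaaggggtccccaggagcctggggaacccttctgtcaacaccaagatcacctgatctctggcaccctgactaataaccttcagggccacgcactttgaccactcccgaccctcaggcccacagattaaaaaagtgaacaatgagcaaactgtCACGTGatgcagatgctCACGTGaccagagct

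Ctsd: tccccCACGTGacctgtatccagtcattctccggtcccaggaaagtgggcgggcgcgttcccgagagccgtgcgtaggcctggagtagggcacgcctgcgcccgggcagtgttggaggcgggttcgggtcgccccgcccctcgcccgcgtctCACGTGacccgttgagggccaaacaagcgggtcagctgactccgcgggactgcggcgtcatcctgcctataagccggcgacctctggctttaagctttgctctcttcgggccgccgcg

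Ctss: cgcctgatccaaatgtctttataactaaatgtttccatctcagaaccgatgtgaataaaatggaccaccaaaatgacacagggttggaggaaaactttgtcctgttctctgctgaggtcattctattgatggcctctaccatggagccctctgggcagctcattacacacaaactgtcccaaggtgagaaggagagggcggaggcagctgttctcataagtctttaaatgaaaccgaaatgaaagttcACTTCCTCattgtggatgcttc

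Ctsl: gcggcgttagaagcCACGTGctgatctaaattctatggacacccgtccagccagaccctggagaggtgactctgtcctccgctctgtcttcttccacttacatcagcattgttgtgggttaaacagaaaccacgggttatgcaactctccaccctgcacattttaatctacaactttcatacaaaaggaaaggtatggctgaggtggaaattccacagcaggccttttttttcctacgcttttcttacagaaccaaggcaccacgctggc

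The hexamers of Ctsa began 12 bases before and 6 bases after the start site, those of Ctsd 245 and 98 bases before it, and that of Ctsl 236 bases before it. Ctsa and Ctsd had an r of 0.913 over the 6 pools (exact permutation p = 0.00139, adjusted p = 0.0208; rho = 1, exact permutation p = 0.00278, adjusted p = 0.0417), and 0.894 without female replicate 2 and male replicate 3. Ctsd and Ctsl, which share the hexamer too, had an r of 0.425 (exact permutation p = 0.381, adjusted p = 0.433; rho = 0.0286, exact permutation p = 1.0, adjusted p = 1.0), and -0.84 without those pools. Ctsc, whose window lacks the hexamer, had an r of 0.990 with Ctsa and of 0.893 with Ctsd, with a rho of 1 in both pairs. With sex means removed, the r of Ctsd was 0.891 with Ctsl and 0.821 with Ctsa. A relation between the hexamer and the covariation was not tested. A match is a stretch of letters and says nothing of binding in these nerves.

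Other cathepsins were low. Of 13 further cathepsin genes, 4 passed the filter, with Ctsf averaging 33.8 ± 5.67 TPM over female pools against 33.2 ± 1.78 TPM over male pools, and Ctso 24.1 ± 2.34 TPM over female pools against 25.1 ± 1.43 TPM over male pools (SD). Ctso also had the smallest p of the 4 (log2 fold change -0.13, adjusted p = 0.864, edgeR). Of the placental cathepsin family, Cts3, Cts6, Cts7, Ctsj, Ctsm and Ctsr had no read pair in any pool, which allows up to 0.0382 to 0.0536 CPM in a pool by counting error alone.

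Cystatins inhibit cysteine cathepsins, and Cst3 and Cstb were the most abundant of those examined. Of 12 inhibitor genes, 10 passed the filter, none was called by edgeR, and their median log2 fold change was -0.07. Cst3, encoding the secreted cystatin C, had 781, 837 and 938 TPM in female pools, against 816, 850 and 934 TPM in male pools. Cstb, encoding the cytosolic cystatin B, had 463, 439 and 459 TPM in female pools, against 464, 432 and 688 TPM in male pools. The sexes overlapped for both, and male replicate 3 was the highest pool for Cstb. Serpina3n, a secreted serpin that inhibits serine proteases, had the smallest p, with 282, 230 and 267 TPM in female pools, against 212, 193 and 191 TPM in male pools (log2 fold change 0.39, SE 0.09, adjusted p = 0.461, edgeR). It was higher in every female pool, and DESeq2 called it (adjusted p = 0.0158).

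Partners and substrates of the members leaned the same way as the members. All 11 genes of that list had a log2 fold change below 0, with a median of -0.32, 6 of them at an unadjusted p below 0.05, and none was called by edgeR. Psap, encoding the precursor of the saposins that cathepsin D helps to cleave, had 1287, 1292 and 1371 TPM in female pools, against 1596, 1583 and 1870 TPM in male pools (log2 fold change -0.32, SE 0.10, adjusted p = 0.695, edgeR). Cd74, the invariant chain that cathepsin S trims, had 610, 574 and 609 TPM in female pools, against 742, 861 and 819 TPM in male pools (log2 fold change -0.39, SE 0.08, adjusted p = 0.416, edgeR). The sexes did not overlap for either gene. Col1a2, a collagen chain, had 752, 737 and 795 TPM in female pools, against 1020, 1079 and 856 TPM in male pools (log2 fold change -0.34, SE 0.09, adjusted p = 0.552, edgeR), with male replicate 3 the lowest male pool. DESeq2 called 4 genes of the list lower in females, namely Cd74, Col1a1, Col1a2 and Tlr9.

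Other lysosomal genes had smaller median differences than the members. Of 36 lysosomal hydrolases, 31 had a log2 fold change below 0, the median was -0.11, 9 were lower at an unadjusted p below 0.05 and 1 higher, and none was called by edgeR. Asah1 (acid ceramidase) averaged 216 ± 14.4 TPM over female pools and 225 ± 7.62 TPM over male pools, and Scpep1, a serine carboxypeptidase, 138 ± 8.89 TPM over female pools and 142 ± 2.30 TPM over male pools (SD, n = 3 each). Lipa (lysosomal acid lipase) had the smallest p, at 86.2, 93.1 and 91.5 TPM in female pools, against 103, 106 and 108 TPM in male pools (log2 fold change -0.26, SE 0.07, adjusted p = 0.564, edgeR).

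Of 24 lysosomal membrane genes, 20 were below 0, with a median of -0.10, 2 were lower at an unadjusted p below 0.05, none was called by edgeR, and DESeq2 called Laptm5. Cd63, a tetraspanin of late endosomes, averaged 712 ± 41.9 TPM over female pools and 681 ± 17.2 TPM over male pools, and Lamp1, a main glycoprotein of the lysosomal membrane, 677 ± 30.7 TPM over female pools and 731 ± 11.8 TPM over male pools (SD, n = 3 each). Laptm5, found in lysosomes of blood-derived cells, had 228, 227 and 199 TPM in female pools, against 283, 277 and 261 TPM in male pools (log2 fold change -0.33, SE 0.07, adjusted p = 0.416, edgeR, and 0.0065 in DESeq2).

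The 16 sorting and regulatory genes had a median of -0.02, with 11 below 0 and none called by edgeR. M6pr, a mannose 6-phosphate receptor that carries hydrolases to the lysosome, averaged 136 ± 3.12 TPM over female pools and 146 ± 12.7 TPM over male pools, and Rragc, a Rag GTPase on the lysosomal surface, 72.3 ± 2.41 TPM over female pools and 70.8 ± 2.81 TPM over male pools (SD, n = 3 each). Tfec, a relative of TFEB expressed in macrophages, had the smallest p and the opposite sign, with 11.6, 9.44 and 9.91 TPM in female pools, against 7.84, 7.31 and 8.61 TPM in male pools (log2 fold change 0.35, SE 0.13, adjusted p = 0.791, edgeR).

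Macrophage markers mostly had the sign of the members. Of 16 macrophage genes, 11 had a log2 fold change below 0, the median was -0.23, 6 were lower and 1 higher at an unadjusted p below 0.05, and none was at 0 in all pools. None was called by edgeR, while DESeq2 called Csf1r and Cx3cr1, both lower in females. Their summed level was 2283, 2142 and 2304 TPM in female pools, against 2402, 2591 and 2723 TPM in male pools, so females were below males throughout. The 2 highest were C1qb, averaging 353 TPM over female and 429 TPM over male pools, and Cd68, averaging 311 TPM over female and 412 TPM over male pools. Csf1r, the receptor of a macrophage growth factor, had the smallest p, at 174 TPM over female and 211 TPM over male pools (log2 fold change -0.38, adjusted p = 0.416, edgeR, and 0.00629 in DESeq2). Cd163, a marker of resident macrophages, went the other way, at 61.4 TPM over female and 40.3 TPM over male pools (log2 fold change 0.62). Of 13 dendritic and B cell genes, 12 were below 0, with a median of -0.37. At an unadjusted edgeR p below 0.05, 5 of these were lower in females, and none was called. Their summed level was 924 to 1002 TPM in females and 1150 to 1358 TPM in males.

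The mean log2 level of the macrophage list had a median r of 0.840 with the 10 members, all above 0, from 0.185 (Ctsl) to 0.915 (Ctsa; exact permutation p = 0.0139, adjusted p = 0.248; rho = 0.829, exact permutation p = 0.0583, adjusted p = 0.632). None of 130 pairs of a member and 1 of 13 marker lists had an adjusted exact permutation p below 0.05. The median r with the macrophage list was 0.755 with sex means removed and 0.230 without female replicate 2 and male replicate 3. Dendritic and B cell genes had a median r of 0.570 with the members, and of -0.20 with sex means removed. Without female replicate 2 and male replicate 1 it was 0.712. Neutrophil genes had a median r of -0.55, myelinating Schwann cell genes 0.437, fibroblast genes 0.00907, fast muscle genes -0.27 and erythroid genes -0.43 with the members. Adipocyte genes had a median r of -0.55 and nonmyelinating Schwann cell genes one of 0.22. Without the 2 pools farthest from the median of each list, the value was 0.566 for erythroid genes and -0.47 for fibroblast genes, so neither kept its sign. It was -0.77 for nonmyelinating Schwann cell genes, also a change of sign, and 0.154 for myelinating ones. With sex means removed, the median r was 0.695 for myelinating and 0.624 for nonmyelinating Schwann cell genes, near that of the macrophage list. The list of 8 osteoclast genes holds Ctsk partners such as Acp5, which averaged 17.1 TPM over female and 23.3 TPM over male pools, with overlap. By the mean log2 level of the 6 that passed the filter, the median r of the list with the members was 0.90. With Ctsk itself the r was 0.504 (exact permutation p = 0.321, adjusted p = 0.759; rho = 0.486, exact permutation p = 0.356, adjusted p = 0.856), and 0.12 with sex means removed. By the summed TPM of all 8, in which Mmp9 was the highest gene, the median r was -0.44 and all 10 values were below 0. The defining osteoclast genes Calcr, Ocstamp and Dcstamp averaged 0.0162, 0.457 and 0.412 TPM over female pools and 0.00389, 0.447 and 0.411 TPM over male pools. The part of macrophage number or of any other cell type in the sex differences and in the covariation was not tested.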

How the data were processed

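The authors sequenced strand-specific poly-A libraries of 6 sham nerve pools in paired 100-cycle runs, trimmed the reads with Trimmomatic and quantified GENCODE mouse transcripts on GRCm39 with Salmon, with Trimmomatic 0.39, Salmon 1.5.2 and MultiQC 1.9 named in the submitters' processing notes. The deposited tables hold, per transcript, the estimated count of read pairs, the TPM (per effective length, scaled to the same total in each library) and both lengths, with no filter. The release of the annotation and the Salmon version differ between the sources used here. Salmon divides reads shared by transcripts, so shares of overlapping transcripts are model estimates.

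Counts and TPM were summed per gene identifier, of which each member symbol had a single one, and estimated counts were rounded to whole numbers. Genes with at least 0.5 CPM in at least 3 pools (16310) entered edgeR 4.0.16 (R 4.3.3; TMM factors 0.979 to 1.01, robust quasi-likelihood test, no covariate, Benjamini-Hochberg adjusted p below 0.1, female over male). DESeq2 1.42.0 and limma 3.58.1 were alternatives. Levels were compared in TPM with an exact sign-flip permutation test over 6 pools, and covariation as Pearson r and Spearman rho of log2(CPM + 0.5) with exact permutation over all 720 pairings (Python 3.11.15, SciPy 1.17.1). The fitting code was tested on simulated data. Positions and transcript sequences came from GENCODE M39, promoters from RefSeq.

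The members and all lists were chosen with earlier results of these data known. Named besides the members were, per list, the 2 tested genes with the highest TPM, any called gene and that with the smallest p, and the 5 genes most like the mean z-score; other names were chosen after their values were seen. Same-numbered pools did not pair (r of their deviations -0.19, -0.16 and -0.13). Pools come from separate mice. Counting intervals cover counting error only.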

Additional observations from a re-analysis of the deposited data

How the results depend on the processing

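The number of genes called among all genes was 10, and it was 159 in DESeq2, 49 with no filter on low counts, 26 in limma-voom with sample weights, 5 with the replicate block and 3 to 8 with 1 pool left out, in fits with fewer samples (3 without male replicate 1, 4 without male replicate 2 and 4 without female replicate 1). Members called numbered 2 in DESeq2 and 0 in each of the other 15 alternatives, the replicate block included. Genes called in the other lists, read off for the same alternatives after seeing the data, numbered 0, but 13 in DESeq2, 2 with no filter and 2 in limma-voom (Col1a1 and Lep in both). Of 160 alternative fold changes of members, 157 kept direction and side of the threshold. Ctsc (-0.33) and Ctsh (-0.34) passed in DESeq2, and Ctsl, at 0.05, ran from -0.049 (without male replicate 2) to 0.21 (without male replicate 3) with 1 pool left out. Pairs of members passing numbered 7 of 45 on log2(TPM + 0.5). Main transcripts not overlapping between the sexes numbered 3 to 5 of 8 with 1 pool left out, 5 being without female replicate 3, beside up to 22.8% of all such genes (a background added after seeing the data). The log2 ratio of mean levels was -0.63 for Ctsb over Ctss with protein-coding transcripts only. With counts per kilobase of mean annotated length it was -0.32 for Ctss over Ctsd, -0.26 for Ctsl over Lgmn and -0.71 for Ctsz over Ctsa. In TPM, Ctsz over Ctsa ran from -0.035 (without male replicate 3) to 0.082 with 1 pool left out. The causes were not tested. With 3 pools per sex no exact p below 0.1 can be reached between the sexes.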
